A study of Mus musculus with 9 samples.

Results

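The 10 genes described here encode proteins of the extracellular matrix and of activated fibroblasts: Postn, Tnc, Sparc, Thbs1, Thbs2, Fn1, Dcn, Lum, Sfrp4 and Fap. They were taken by symbol from 18639 entries per library, and all 10 passed the filter on low values (1 TPM or more in at least 3 libraries), as did 13829 genes in all. Postn, Sfrp4 and Fap were chosen by their lower values with ThTC in an earlier look at these libraries, so what is said of the 3 with ThTC is a description with no test. The other 7 were chosen as known matrix genes of fibroblasts. TPM divides a gene's reads by its length and scales each library to the same total, so levels can be set side by side between genes.

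Bulk RNA sequencing covered 9 libraries of tumour tissue from mouse brain, taken 5 days after the tumour had been resected. The tumour line in every group was CT2A, a mouse glioma line. The 3 groups of 3 libraries received sECM only, GFP-TC (control cells) or ThTC (cells that secrete interferon-beta and GM-CSF), and the secreting cells are CT2A cells by the series' title. The labels give no strain, age or sex, and do not say whether each library came from its own animal or how many implanted cells remained. The p-values therefore reflect library-to-library spread, which may be technical.

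Fibroblasts that respond to injury or to a tumour secrete a provisional matrix. Fibronectin and thrombospondins are laid down early in it, matricellular proteins such as periostin and tenascin-C modulate how cells attach to it, and the proteoglycans decorin and lumican bind collagen fibrils and set their spacing. In the brain, fibroblasts lie mainly in the meninges and around vessels, and Sparc, Tnc, Thbs1 and Fn1 are also made by glioma, endothelial and glial cells. The values below are of whole tissue, in which fewer cells of a type and less RNA per cell cannot be told apart, and the cells that made these transcripts were not identified.

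Defining fibroblast genes were present in every library, though not at equal levels. Col3a1, a fibrillar collagen gene, ranged between 875 and 1654 TPM, Pdgfra, a receptor gene of fibroblasts and oligodendrocyte precursors, between 44.4 and 68.7 TPM, and Col1a1 between 21.8 and 78.6 TPM. Col1a2, whose product pairs with that of Col1a1 in type I collagen, was at 3.39 to 44.2 TPM. The level of Col3a1 was thus above that of Col1a1 in all 9 libraries, and the name fibroblast matrix genes is used here for the choice of genes, not for a cell source.

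Promoter sequences from RefSeq (GRCm38.p6, the build named in the submitters' processing notes) were on hand for 4 of the 10 genes. Shown are the 250 bases before 1 of the 2 listed Postn starts (forward strand, chr3:54360857-54361106, start at 54361107) and before the Thbs2 start (reverse strand, chr17:14694263-14694512, start at 14694262). Postn had the widest range of the 10 genes, and of the 4 genes with a sequence Thbs2 followed it most closely. Sequences run 5′ to 3′. Capitals mark matches on either strand to the core of a TATA box (TATAAA), to a CCAAT box, to a SMAD box (GTCTG) or to an AP-1 site (TGANTCA).
Postn: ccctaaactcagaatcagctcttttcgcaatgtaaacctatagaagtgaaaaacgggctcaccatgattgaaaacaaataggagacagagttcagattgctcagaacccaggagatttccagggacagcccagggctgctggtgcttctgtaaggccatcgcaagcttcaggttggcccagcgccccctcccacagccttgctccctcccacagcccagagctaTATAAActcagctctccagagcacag
Thbs2: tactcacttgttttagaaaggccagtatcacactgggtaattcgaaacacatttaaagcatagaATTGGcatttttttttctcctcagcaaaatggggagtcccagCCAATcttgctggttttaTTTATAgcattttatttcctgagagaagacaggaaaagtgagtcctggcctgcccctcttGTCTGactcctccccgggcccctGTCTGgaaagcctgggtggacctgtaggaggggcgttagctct
The Postn window held 1 match, TATAAA at position -26 from the start. That motif was present in 12.4% of 32851 windows of the same length. The Thbs2 window held TATAAA on the reverse strand at -126, GTCTG at -66 and -43, and CCAAT at -144 and, on the reverse strand, at -186, motifs present in 12.4%, 42.2% and 33.8% of windows. The window before the other listed Postn start, which is not shown, held GTCTG on the reverse strand at -191. TGANTCA, present in 6.75% of windows, was in neither sequence. These are matches of letters and do not show that a factor binds.

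The matricellular genes come first. Postn (chromosome 3, 54359267 to 54391041) encodes periostin, a protein that binds integrins and cross-links collagen matrix. It was at 78.65, 141.2 and 97.5 TPM with sECM only, at 129.5, 155.1 and 64.98 TPM with GFP-TC, and at 51.97, 64.2 and 22.4 TPM with ThTC, in the order of replicates 1, 2 and 3. The 3 ThTC libraries were the lowest of the 9, with ThTC 3 the lowest and GFP-TC 3 the next above the ThTC group. The gap between the groups was narrow: ThTC 2 and GFP-TC 3 differed by less than 1 TPM. The means were 105.8 ± 32.1, 116.5 ± 46.4 and 46.2 ± 21.5 TPM (SD, n = 3), so the ThTC mean was 2.52-fold below that of GFP-TC and 2.29-fold below that of sECM only. The log2 difference was -1.35 with an SE of 0.44 against GFP-TC.

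**Figure D1:**
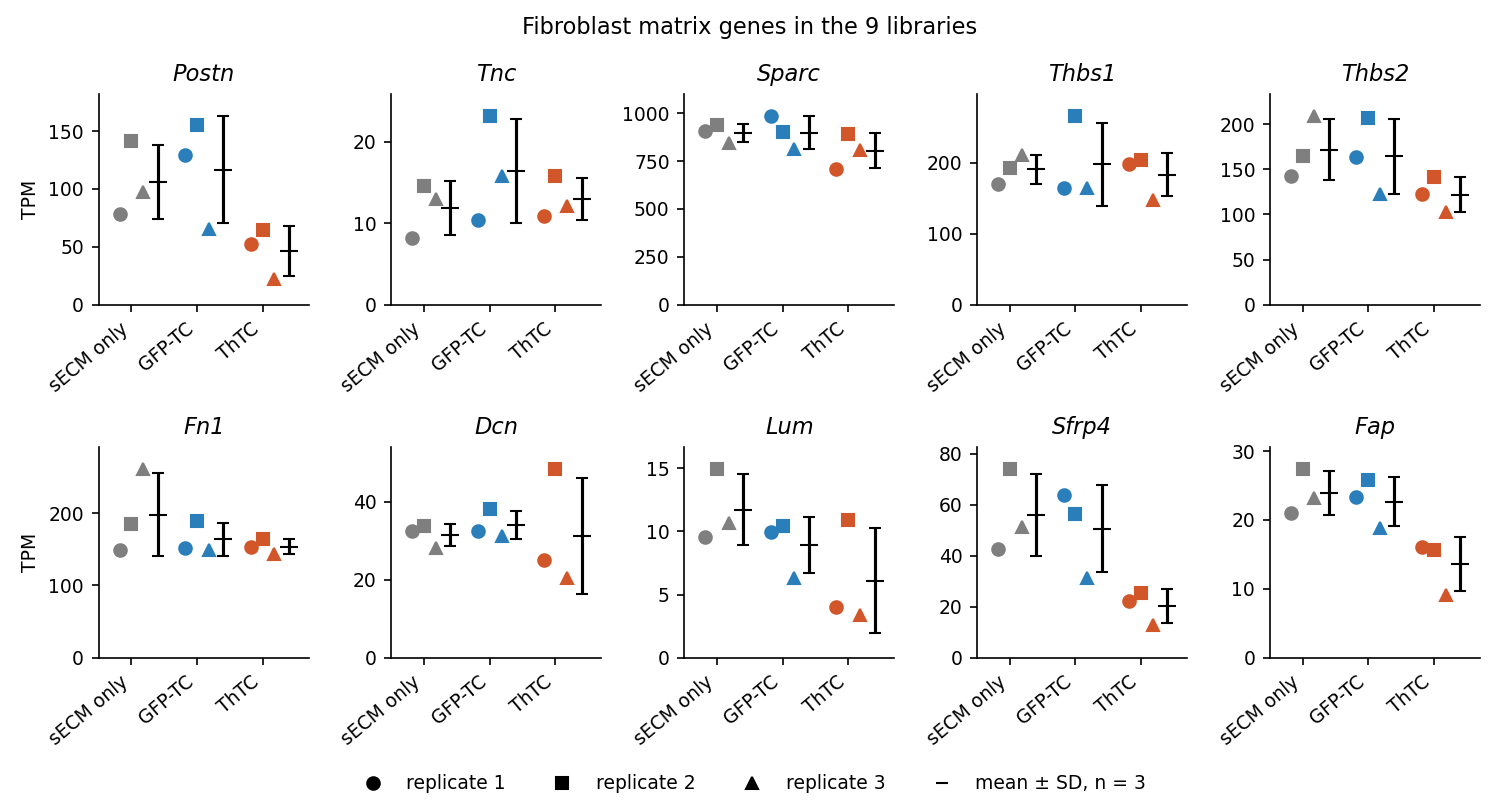
TPM of each of the 10 genes (vertical axis, from 0) by group, with 1 point per library (circle, square and triangle for replicates 1, 2 and 3) and the mean ± SD of 3 libraries beside them. The 3 ThTC libraries lie below the other 6 for Postn, Sfrp4 and Fap, the genes chosen for that, and overlap with GFP-TC for the other 7 genes.

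Tnc (chromosome 4, 63959785 to 64047015) encodes tenascin-C, an anti-adhesive matrix protein that is abundant in gliomas and wounds. It was at 8.16, 14.5 and 12.96 TPM with sECM only, 10.4, 23.1 and 15.8 TPM with GFP-TC, and 10.9, 15.8 and 12.2 TPM with ThTC. The libraries of all 3 groups overlapped, and the highest value, in GFP-TC 2, stood apart from the rest. The means were 16.5 ± 6.39 TPM with GFP-TC, 11.9 ± 3.31 TPM for sECM only and 12.9 ± 2.54 TPM for ThTC (SD, n = 3). Tnc was the 1 gene of the 10 with a higher mean with ThTC than with sECM only, by 0.13 on the log2 scale (SE 0.30), and that sign turned without sECM only 1 (-0.093) or without ThTC 2 (-0.0064).

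Sparc (chromosome 11, 55394159 to 55420080), which encodes osteonectin, a collagen-binding glycoprotein, was the most abundant of the 10 genes and the least variable. It was at 907, 938 and 847 TPM with sECM only, 985, 900 and 812 TPM with GFP-TC, and 710, 894 and 808 TPM with ThTC. Its highest value was 1.39-fold its lowest, against 6.93-fold for Postn. The ThTC mean of 804 ± 91.9 TPM was 10.6% below the GFP-TC mean of 899 ± 86.4 TPM (SD, n = 3), and the groups overlapped (log2 difference -0.16, SE 0.11; limma, adjusted p = 0.498). That difference was -0.077 without ThTC 1, -0.095 without GFP-TC 1 and -0.028 after median-of-ratios scaling.

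Thbs1 and Thbs2 encode thrombospondins, glycoproteins that restrain vessel growth; thrombospondin-1 also activates latent TGF-beta and binds CD47. Thbs1 (chromosome 2, 118111876 to 118127133) was at 170, 192 and 211 TPM with sECM only, 164, 266 and 164 TPM with GFP-TC, and 198, 204 and 148 TPM with ThTC. Its groups overlapped, and the sign of its log2 difference of -0.087 (SE 0.20) between ThTC and GFP-TC turned without GFP-TC 2 (0.14), without ThTC 3 (0.058) and after median-of-ratios scaling (0.047). Thbs2 (chromosome 17, 14665500 to 14694262) was at 142.5, 164.5 and 209 TPM with sECM only, 164, 207 and 122.45 TPM with GFP-TC, and 122.6, 141.2 and 102 TPM with ThTC. All 3 ThTC libraries lay below all 3 sECM only libraries, by a margin of 141.2 against 142.5 TPM, and overlapped with GFP-TC. The group means were 172 ± 34.0 TPM (sECM only), 164.4 ± 42.1 TPM (GFP-TC) and 122 ± 19.4 TPM (ThTC; SD, n = 3), and neither log2 difference of ThTC (-0.49 against sECM only and -0.41 against GFP-TC, SE 0.21) passed in limma (adjusted p = 0.687 and 0.384). Against GFP-TC it ran from -0.23 without GFP-TC 2 to -0.60 without GFP-TC 3.

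Fn1 (chromosome 1, 71585473 to 71653280) encodes fibronectin, the glycoprotein on which cells and other matrix proteins assemble. It was at 148.5, 185 and 261 TPM with sECM only, 152.4, 189 and 149 TPM with GFP-TC, and 154, 165 and 143 TPM with ThTC. Only sECM only 3 stood above 200 TPM, and the 6 libraries that received cells lay between 143 and 189 TPM. The log2 difference between ThTC and GFP-TC was -0.083 (SE 0.19; limma, adjusted p = 0.899).

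Dcn and Lum encode decorin and lumican, small leucine-rich proteoglycans that bind collagen fibrils, and lie next to each other on chromosome 10 (97479500 to 97518163 and 97565501 to 97572703, with 47337 bases between them). Dcn was at 32.45, 33.75 and 28.2 TPM with sECM only, 32.6, 38.3 and 31.35 TPM with GFP-TC, and 25.1, 48.4 and 20.5 TPM with ThTC. The ThTC group held both the highest and the 2 lowest values of the 9, so that its SD of 14.9 TPM was above the 2.89 and 3.69 TPM of sECM only and GFP-TC. Lum was at 9.59, 14.9 and 10.6 TPM with sECM only, 9.94, 10.5 and 6.35 TPM with GFP-TC, and 4.04, 10.9 and 3.36 TPM with ThTC. It had the same order within ThTC as Dcn, with ThTC 2 high and the other ThTC libraries the lowest of the 9. The Lum mean of 6.11 ± 4.18 TPM with ThTC was 1.92-fold below the 11.7 ± 2.82 TPM of sECM only (SD, n = 3; log2 difference -0.97, SE 0.38; limma, unadjusted p = 0.0326, adjusted p = 0.687).

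Sfrp4 (chromosome 13, 19623175 to 19632825) encodes a secreted frizzled-related protein, which binds Wnt ligands. It was at 42.6, 73.9 and 51.3 TPM with sECM only, 63.98, 56.5 and 31.4 TPM with GFP-TC, and 22.4, 25.6 and 12.8 TPM with ThTC. The ThTC libraries were the 3 lowest, and the ThTC mean of 20.3 ± 6.65 TPM was 2.50-fold below the GFP-TC mean of 50.6 ± 17.0 TPM and 2.76-fold below the sECM only mean of 55.9 ± 16.2 TPM (SD, n = 3). Fap (chromosome 2, 62500936 to 62575509) encodes fibroblast activation protein, a membrane protease that marks activated fibroblasts. It was at 21.05, 27.35 and 23.3 TPM with sECM only, 23.4, 25.8 and 18.8 TPM with GFP-TC, and 16.1, 15.7 and 9.08 TPM with ThTC. Its ThTC mean of 13.6 ± 3.95 TPM was 1.66-fold below the 22.7 ± 3.57 TPM of GFP-TC and 1.75-fold below the 23.9 ± 3.20 TPM of sECM only.

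ThTC and GFP-TC differ by label in the secretion of interferon-beta and GM-CSF. All 7 genes not chosen by value had lower mean log2 values with ThTC, against 66.2% of all tested genes, and their median log2 difference was -0.21, against -0.10 for all tested genes. The 3 chosen genes were lower by their choice and are left out of these figures. Of these 7, limma called 0 at an adjusted p of 0.05 (background 0% of 13829 tested genes) and 0 had an unadjusted p under 0.05 (background 14.9%). The libraries of 0 of the 7 were separated with ThTC lower (background 16.9%), whereas those of Postn, Sfrp4 and Fap were, which the choice of these genes fixed.

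The scaling of the libraries bore on that separation. Scaling by median-of-ratios factors, which centres the genes, moved the median log2 difference of all tested genes from -0.10 to 0.020. After it, 5 of the 7 genes not chosen by value had lower means with ThTC, with Thbs1 and Fn1 slightly higher, and the median of the 7 was -0.076. None of the 7 was separated (background 6.45% of tested genes), and of the 3 chosen genes only Sfrp4 still had all ThTC libraries below GFP-TC. Postn then overlapped, at 69.7 scaled TPM in ThTC 2 and 58.3 in GFP-TC 3, and so did Fap, at 17.3 in ThTC 1 and 16.8 in GFP-TC 3. The log2 differences of Postn, Sfrp4 and Fap were -1.22, -1.14 and -0.59 with this scaling, against -1.35, -1.27 and -0.72 as deposited.

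**Figure D2:**
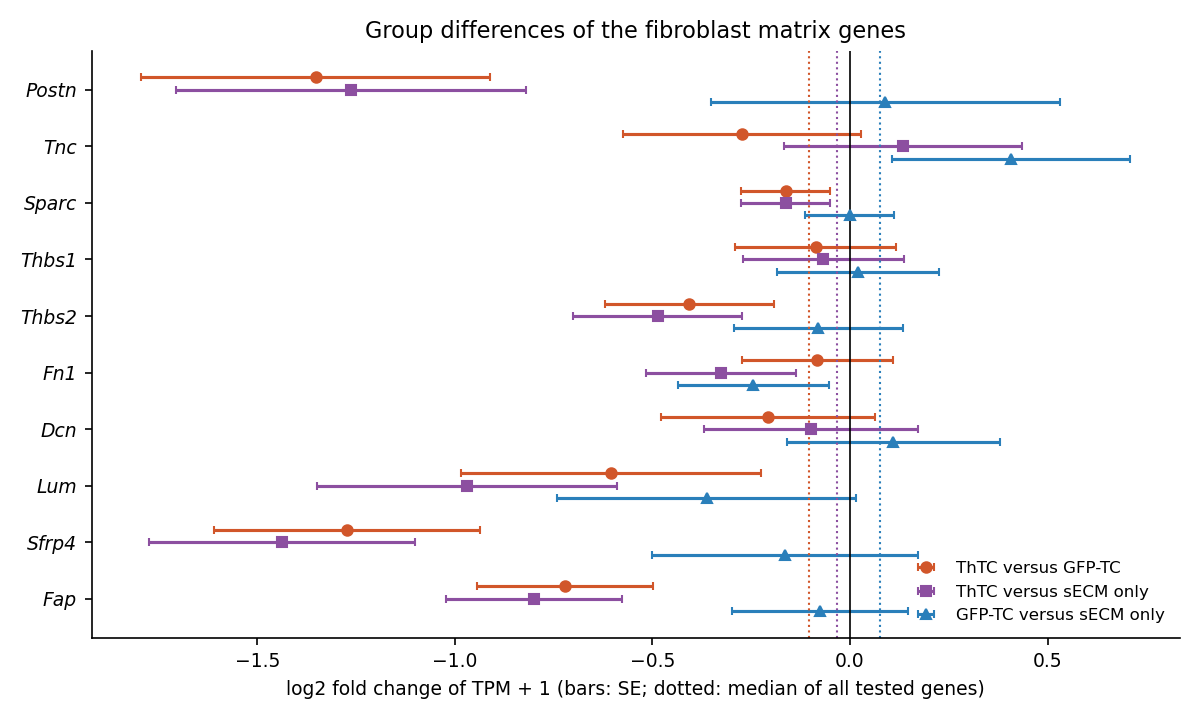
Log2 fold change of TPM + 1 (horizontal axis) for each gene in the 3 group comparisons, with bars for the SE of the limma fit and dotted lines for the median of all tested genes in the same colour. Postn and Sfrp4 lie beyond -1.2 in both ThTC comparisons, and all GFP-TC points lie between -0.36 and 0.41.

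Same-numbered GFP-TC and ThTC libraries departed alike from their group averages for numbers 1 and 3 (r = 0.74 and 0.87). For number 2 the correlation was 0.12, below the 0.38 of GFP-TC 1 with ThTC 2. All 3 exceeded the cut-off of 0.1 and were read as pairs on that ground alone, which is weak for number 2. The GFP-TC value was 2.49, 2.42 and 2.90 times the ThTC value for Postn in pairs 1, 2 and 3, 2.85, 2.21 and 2.45 times for Sfrp4, and 1.45, 1.65 and 2.07 times for Fap. Lum, in contrast, was at 2.46, 0.959 and 1.89 times, and Dcn at 1.30, 0.792 and 1.53 times. When the replicate number entered as a block for these 6 libraries, Postn and Sfrp4 passed in limma (adjusted p = 0.00479 and 0.0191), which is no support since this difference chose them, and the adjusted p of Fap was 0.117. The 7 other genes did not pass with the block.

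Set against sECM only, the same 3 ThTC libraries were compared with tissue that received no cells. Of the 7 genes not chosen by value 6 had lower mean log2 values with ThTC, against 55.6% of all tested genes, with a median log2 difference of -0.16 for the 7 and -0.032 for all tested genes. Among these 7, limma called 0 (background 0%), Lum alone had an unadjusted p under 0.05 (background 6.90%), and Thbs2 alone was separated with ThTC lower (background 12.1%). After median-of-ratios scaling Thbs2 overlapped, so that 0 of the 7 were separated (background 7.77%), and the median of the 7 was -0.13. Postn, Sfrp4 and Fap lay below every sECM only library with and without the scaling; they were chosen on these same ThTC libraries, and nothing is read from it. Without ThTC 3 the count of genes with lower means was 7 of all 10.

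GFP-TC against sECM only shares libraries with both other comparisons. The labels do not say whether the cell groups also received sECM, so the cells and the matrix cannot be told apart in either comparison with sECM only. No gene of the 10 stood apart in it: limma called 0 (background 0%), 0 had an unadjusted p under 0.05 (background 0.933%) and 0 were separated with GFP-TC lower (background 1.08%). Their log2 differences ran from -0.36 for Lum to 0.41 for Tnc, with SEs of 0.11 to 0.44. The number with a lower mean log2 value was 6 of 10 (4 of the 7 not chosen by value), against 28.2% of all tested genes. It was 2 of 10 without GFP-TC 3 and 3 of 10 without sECM only 2. After median-of-ratios scaling 5 of the 7 were lower, against 54.1% of all tested genes. For Postn the ratio of the GFP-TC to the sECM only mean was 1.10, for Sfrp4 0.906 and for Fap 0.949.

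The 10 genes did not vary alike across the 9 libraries. Pearson correlations of log2(TPM + 1) over the 9 libraries, given as a description, were above 0 for all 45 pairs of genes and had a median of 0.53. They were highest among Postn, Sfrp4 and Fap, at 0.97 for each pair, and remained at 0.90 to 0.96 when the group means were removed. These 3 were chosen for a shared decrease with ThTC, so their high correlations over the 9 libraries follow in part from the choice. Lum with Dcn gave 0.75, and 0.91 with group means removed. Thbs1 with Sparc gave 0.059, the lowest. With group means removed, Sparc fell below 0 with Thbs1 (-0.037) and with Fn1 (-0.12). The 9 points share library composition, since a rise of other transcripts lowers all TPM values of a library. ThTC 3 was the lowest library for 8 of the 10 genes, the exceptions being Tnc (sECM only 1) and Sparc (ThTC 1), and GFP-TC 2 and sECM only 2 were each the highest for 3.

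Among the tested genes outside the set whose pattern was most like the mean of the 10 were Cmtm3 (r = 0.98 over 9 libraries), Robo1, a guidance receptor gene (0.96), Col3a1 (0.95) and Il17rd, an inhibitor of FGF receptor signalling (0.95). Among those most like Postn alone were Ptk7, a receptor-like kinase gene of Wnt signalling (0.98), and Stam (0.96). Col3a1, a fibrillar collagen gene, was at 1314 ± 152 TPM with sECM only, 1393 ± 231 TPM with GFP-TC and 1027 ± 136 TPM with ThTC (SD, n = 3). Il17rd was at 7.46 ± 0.84, 7.59 ± 1.30 and 4.65 ± 0.91 TPM in the same order. The mean of the 10 includes the 3 genes chosen by their low values with ThTC, and Postn is 1 of these. Low values with ThTC in the genes most alike therefore follow in part from that choice and support nothing.

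**Figure D3:**
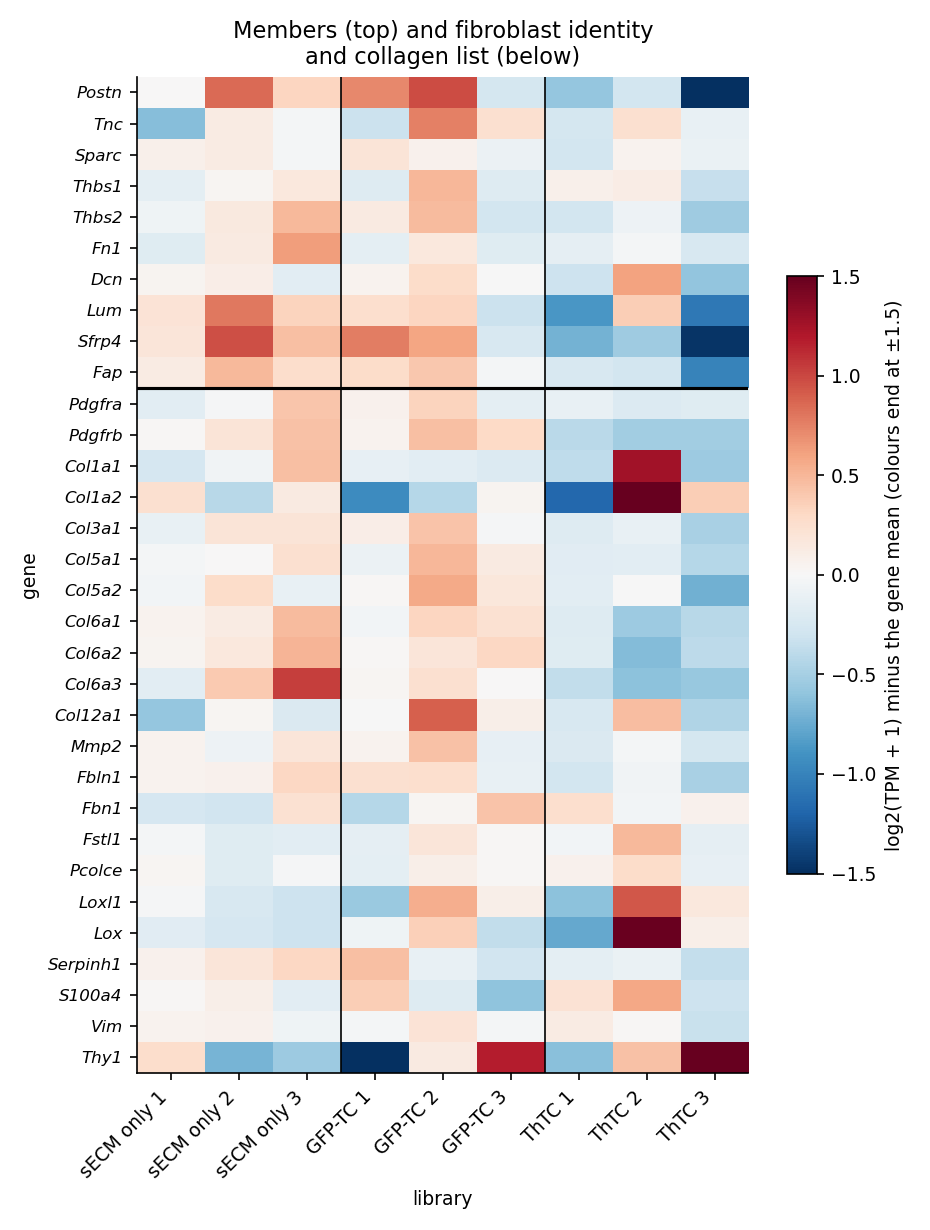
Centred log2(TPM + 1) (colour) of the 10 genes above the line and of 22 fibroblast identity and collagen genes below it, in the 9 libraries. Postn, Sfrp4 and Fap are lowest in ThTC 3, while Col1a1, Col1a2 and Lox are highest in ThTC 2.

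Among 22 fibroblast identity and collagen genes, 13 had lower means with ThTC than with GFP-TC, against 66.2% of all tested genes. After median-of-ratios scaling 12 had, against 46.5%. As deposited the median log2 difference was -0.24, against -0.10 for all tested genes, and limma called 0. Of the 22, 7 had all ThTC libraries below all GFP-TC libraries (background 16.9%): Pdgfrb, Col3a1, Col5a1, Col5a2, Col6a1, Col6a2 and Col6a3, named after their values were seen. After median-of-ratios scaling 5 were (background 6.45%), with Col3a1 and Col5a2 overlapping. Type I collagen did not share that order. Col1a1 was at 24.7, 78.6 and 21.8 TPM with ThTC against 28.0 to 29.7 TPM with GFP-TC, and Col1a2 at 3.39, 44.15 and 11.8 TPM against 4.19 to 9.20 TPM. Lox, a collagen cross-linking enzyme gene, was at 0.61, 6.63 and 1.92 TPM with ThTC and 1.13 to 2.52 TPM with GFP-TC. ThTC 2 was therefore the highest library for Col1a1, Col1a2, Lox and Dcn, while Col6a3, at 12.1 TPM there, was at its lowest. Of the 12 myofibroblast and mural genes, 7 had higher means with ThTC than with GFP-TC (8 after scaling) and 5 had lower means, against 66.2% of all tested genes. Acta2 was at 33.0 ± 14.5 against 20.2 ± 6.83 TPM. Abcc9 and Notch3 were separated with ThTC lower (2 of 12, background 16.9%). After scaling these and Cspg4 were (3 of 12, background 6.45%).

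Ratios to genes of the fibroblast identity and collagen list in the same library describe the members without the library's total. For the 3 chosen genes, low ratios with ThTC follow from the choice and support nothing. Postn was at 1.11 ± 0.32% of the summed TPM of the 22 fibroblast identity and collagen genes with sECM only, 1.19 ± 0.40% with GFP-TC and 0.51 ± 0.19% with ThTC (SD, n = 3). The ratio of Sfrp4 was 0.588 ± 0.161%, 0.523 ± 0.155% and 0.229 ± 0.0498%, and that of Fap 0.251 ± 0.0295%, 0.235 ± 0.0194% and 0.155 ± 0.0279%. Vim, a gene of many cell types, made up the largest part of the sum, at 4164 of 9487 TPM in the sECM only means. Col3a1 (1314 TPM), Serpinh1 (1111 TPM) and S100a4 (966 TPM) came next there. The cells that made these transcripts were not identified, so the percentages are not levels per fibroblast. The ThTC libraries lay below the other 6 in each of these 3 ratios. Relative to Col3a1 alone, Postn overlapped between ThTC (2.56% to 5.65%) and GFP-TC (5.35% to 9.89%), and Sfrp4 and Fap did not. Thbs1 was at 2.01 ± 0.19%, 2.05 ± 0.46% and 2.10 ± 0.083% of the 22 genes, and these overlapped. Relative to Col3a1, whose own mean was lowest with ThTC, Thbs1 was at 17.8 ± 0.80% with ThTC against 14.1 ± 1.83% in the GFP-TC group and 14.6 ± 0.73% in sECM only, so the choice of reference set whether its groups overlapped. Sparc was at 9.46 ± 0.52%, 9.39 ± 0.76% and 9.36 ± 1.60% of the 22 genes, so its ratio differed between the group means by less than the SDs.

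**Figure D4:**
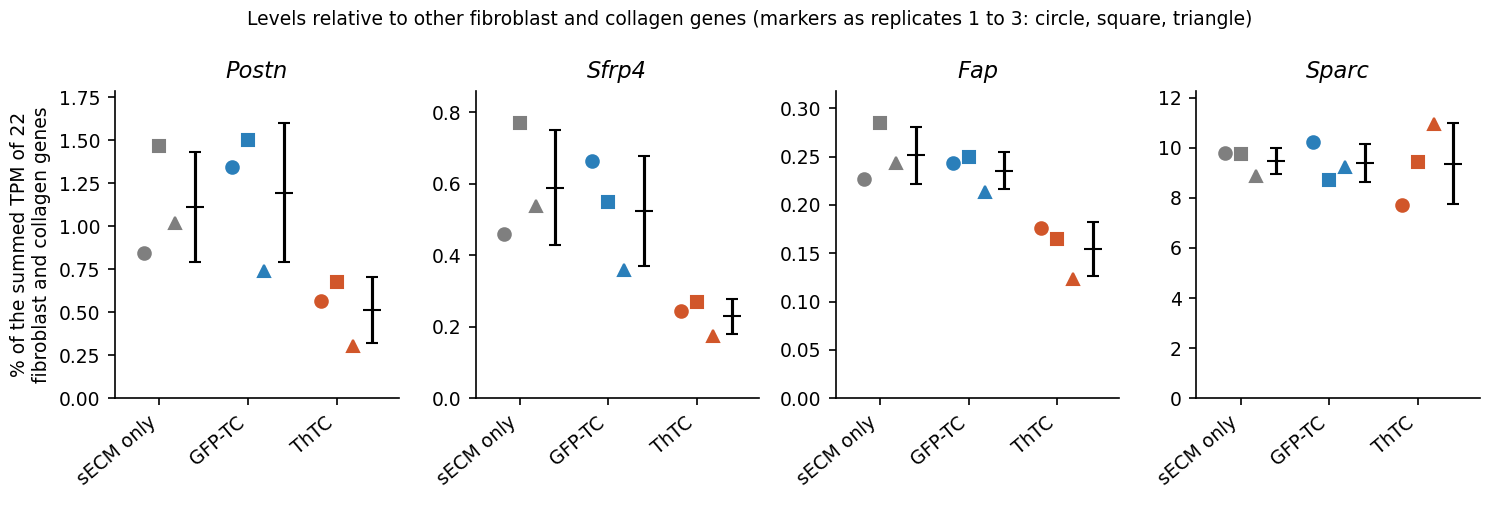
Level of Postn, Sfrp4, Fap and Sparc as a percentage of the summed TPM of 22 fibroblast identity and collagen genes (vertical axis, from 0), by group, with points for libraries and bars for the mean ± SD of 3. The ThTC means are 0.51%, 0.229%, 0.155% and 9.36%.

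Relatives of the 10 genes were followed as lists, in none of which limma called a gene in any comparison. Of 8 tested small leucine-rich proteoglycan genes besides Dcn and Lum, 4 had higher and 4 lower means with ThTC than with GFP-TC (66.2% of all tested genes lower). Bgn, which encodes biglycan, was the most abundant, at 886 ± 36.0 TPM with sECM only, 954 ± 195 TPM with GFP-TC and 720 ± 240 TPM with ThTC (SD, n = 3), and Aspn was at 26.4 ± 4.90, 32.2 ± 5.73 and 25.4 ± 8.68 TPM. Ogn and Omd, 2 further genes of the family, had higher values in all ThTC and all GFP-TC libraries than in all sECM only libraries, with Ogn at 19.7 ± 9.18 against 8.90 ± 2.30 TPM (ThTC against sECM only); after median-of-ratios scaling Ogn overlapped in that comparison. Among 18 matricellular relatives 10 had lower means with ThTC than with GFP-TC (66.2% of all tested genes) and 5 after scaling (46.5%). Compared with sECM only, 16 had higher and 2 lower means with ThTC (55.6% of all tested genes lower). GFP-TC gave the same 16 and 2 against sECM only (28.2% of all tested genes lower), so this order was not particular to ThTC. GFP-TC 3 and ThTC 3 were the highest library for 6 and 7 of the 21 listed genes. Against GFP-TC, Thbs3 and Wisp1 were separated with ThTC lower (2 of 21 listed, background 16.9%), and after scaling Thbs3 alone was (1 of 21, background 6.45%). Thbs3 was at 41.9 ± 6.76 TPM with ThTC against 58.9 ± 8.96 TPM with GFP-TC. Spp1, which encodes osteopontin, overlapped at 1687 ± 657 against 1421 ± 438 TPM. Of the other frizzled-related genes Sfrp1 lay between 0.33 and 3.54 TPM and Sfrp2 and Sfrp5 at 1.77 TPM or less, well under Sfrp4. Dpp4, the closest relative of Fap, lay between 0.41 and 1.66 TPM.

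Receptors and upstream signals of these proteins spanned a wide range of levels. Itgb1, the integrin beta-1 chain shared by many matrix receptors, was at 398 ± 37.0 TPM with sECM only, 410 ± 29.0 TPM with GFP-TC and 370 ± 51.2 TPM with ThTC (SD, n = 3). Of 23 tested matrix receptor genes, 13 had lower means with ThTC than with GFP-TC (66.2% of all tested genes), but 10 after median-of-ratios scaling (46.5%). Cd47, a thrombospondin-1 receptor, was separated with ThTC higher, at 84.1 to 86.5 TPM against 61.3 to 77.05 TPM (GFP-TC) and 63.4 to 79.8 TPM (sECM only). Against GFP-TC it was 1 of 24 listed genes separated upwards, and after median-of-ratios scaling Itga3, Itga9 and Itgb7 were too (4 of 24). The share of all tested genes separated with ThTC higher was not computed, so nothing is read from these counts. Itga8, Itga5 and Itgav, which encode alpha chains of receptors for fibronectin and other matrix ligands, were separated with ThTC lower (3 of 24 listed; background 16.9%), and after median-of-ratios scaling Itga8 alone was. Itga8 was at 2.80 ± 0.16 against 5.03 ± 0.80 TPM (GFP-TC) and 5.31 ± 0.55 TPM (sECM only), and Itga5 at 79.7 ± 2.28 against 101 ± 15.3 TPM with GFP-TC. In the TGF-beta pathway, which induces many matrix genes, 15 of 16 genes had lower means with ThTC than with GFP-TC, against 66.2% of all tested genes. After scaling 13 had, against 46.5%. As deposited the median was -0.24, against -0.10 for all tested genes, and 6 of 16 were separated with ThTC lower (background 16.9%). After median-of-ratios scaling Ltbp4 alone was (1 of 16, background 6.45%). Compared with sECM only, 7 of 16 were separated with ThTC lower (background 12.1%) and 6 of 16 after scaling (background 7.77%). Ltbp4, which encodes a latent TGF-beta binding protein, was at 183 ± 3.31 TPM with ThTC against 250 ± 54.5 TPM with GFP-TC. In the same order Tgfb3 was at 82.0 ± 0.88 against 103 ± 12.0 TPM, and Tgfb1 itself at 144.45 ± 9.47 against 146 ± 36.4 TPM.

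Markers of other cell types moved with some of these values. The 10 neuron marker genes summed to 199 to 327 TPM with sECM only, 85.9 to 1135 TPM with GFP-TC and 122 to 1331 TPM with ThTC, with GFP-TC 3 and ThTC 3 as the 2 highest. Those 2 libraries were also the lowest of their groups for 8 of the 10 genes, all but Tnc and Sparc. With the neuron marker level as a covariate the ThTC against GFP-TC log2 differences were -1.32 for Postn, -1.25 for Sfrp4 and -0.71 for Fap, and without GFP-TC 3 and ThTC 3 together they were -1.28, -1.29 and -0.60. Without ThTC 3 alone they were -0.91, -0.99 and -0.47. All 10 monocyte and macrophage genes had higher means with ThTC than with GFP-TC (66.2% of all tested genes lower). Against sECM only 9 had higher and 1 lower means with ThTC (55.6% of all tested genes lower). The 10 genes summed to 1255 to 2335 TPM with ThTC, 646 to 1287 TPM in the GFP-TC group and 943 to 1158 TPM in sECM only. Lyz2 made up the largest part of the sum, at 694 to 1500 TPM with ThTC. The 8 T cell genes summed to 102 to 117 TPM with ThTC, 8.92 to 94.1 TPM in the GFP-TC group and 24.5 to 103 TPM in sECM only. No T cell marker was at 0. The 9 endothelial genes summed to 106 to 206 TPM with ThTC and 118 to 168 TPM with GFP-TC, and the 12 meningeal fibroblast genes to 82.3 to 305 and 74.0 to 277 TPM. Ptgds made up the largest part of the meningeal sum, at 56.0 to 234 TPM with ThTC and 41.8 to 215 TPM with GFP-TC. Of the 12 meningeal genes 8 passed the filter on low values. The part of immune, endothelial and meningeal cells in the levels of the matrix genes was not tested.

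**Figure D5:**
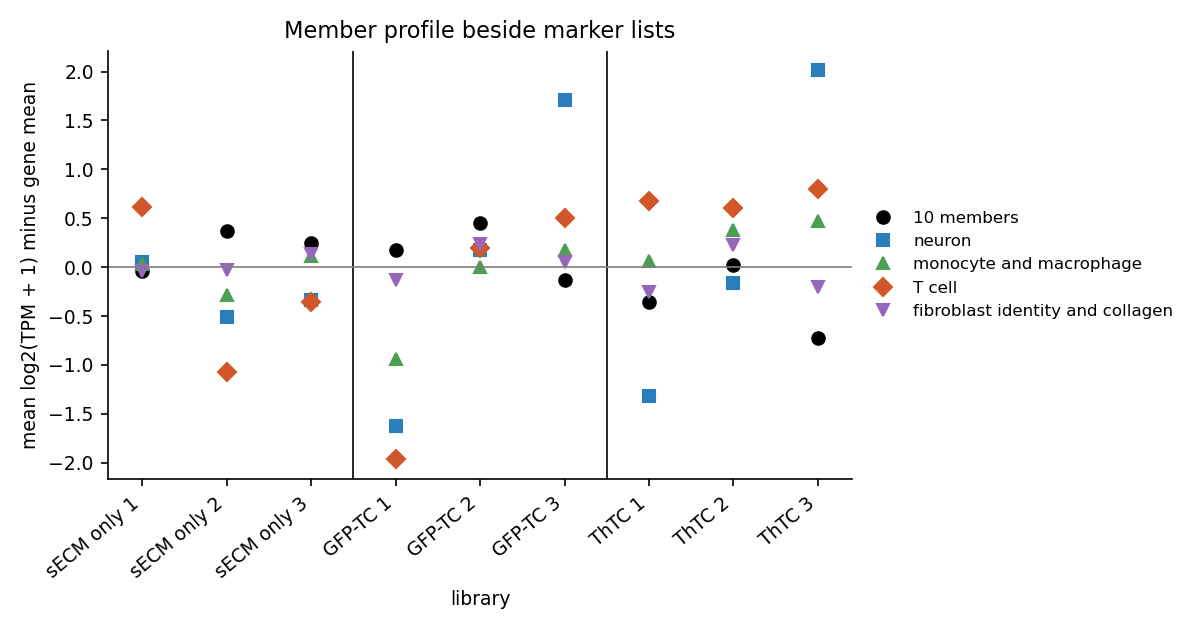
Mean centred log2(TPM + 1) per library (vertical axis) of the 10 matrix genes and of 4 marker lists. The matrix gene mean is lowest in ThTC 3 (-0.72), the library with the highest neuron mean (2.01), while ThTC 1, with a neuron mean of -1.31, is the second lowest (-0.36).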

How the data were processed

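RNA sequencing of tumour tissue gave 9 libraries in 3 groups, taken from the sample titles and treatment labels. Each file deposited by the authors holds TPM values with 2 decimals, as its header says. The submitters' processing notes name HISAT, GRCm38.p6 and mm10. The tool that computed TPM, its annotation and any filters are not given in the sources used here. Depth cannot be read from TPM. The labels state 4.47 Gb of bases per sample. No counting interval was computed.

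Values were analysed as log2(TPM + 1), which understates the change of low genes. The 13829 of 18639 entries that reached 1 TPM in 3 or more libraries entered limma 3.58.1 (R 4.3.3) with an intensity trend, all 9 libraries in one fit, and Benjamini-Hochberg adjustment over all tested genes at 0.05. The steps were tested on simulated data. Libraries of a group had equal values in at most 0.42% of tested genes. Gene positions and promoters come from RefSeq tables of GRCm38.p6. Members and the 16 gene lists were chosen with earlier results of these data known. Named genes are the 10 members, the most abundant genes of each list, the genes most like the members (1 is not reported here), and, named after their values were seen, the genes with separated libraries (in the collagen, mural, proteoglycan, matricellular, receptor and TGF-beta lists), Pdgfra, Col1a1, Col1a2, Lox, Sfrp2, Sfrp5 and Dpp4. Figures were drawn with matplotlib 3.10.9 in Python 3.11.15.

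Pairing was checked by correlating deviations from group means over tested genes. Same-numbered GFP-TC and ThTC libraries gave 0.74, 0.12 and 0.87, all over 0.1, and were treated as pairs, although no label explains the numbers and GFP-TC 1 with ThTC 2 gave 0.38. Same-numbered sECM only libraries gave -0.53, -0.14 and -0.19 with GFP-TC and -0.55, 0.28 and -0.20 with ThTC, so these numbers were not taken as pairs. Alternatives covered the pseudocount, the filter, the scaling, the libraries fitted, the replicate block, a neuron marker covariate and leaving out each library.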

Additional observations from a re-analysis of the deposited data

How the results depend on the processing

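With 3 libraries a group, differences of the size of the SEs could not be resolved. The ThTC against GFP-TC and ThTC against sECM only differences of Postn, Sfrp4, Fap, Thbs2, Lum and Sparc stayed negative under every alternative run, though not of one size: Lum against GFP-TC ran from -0.33 without ThTC 3 to -1.05 without ThTC 2. Leaving out GFP-TC 3 and ThTC 3 together was chosen after seeing the data.

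The replicate block in the 6 libraries called 8 genes for ThTC against GFP-TC instead of 0, among them Postn and Sfrp4, and changed no other call. With the neuron covariate, limma called 2 genes in the ThTC comparison with sECM only and 1 in that of GFP-TC. Leaving out 1 library gave 0 to 1 genes in these 2 comparisons. The number of tested genes at an unadjusted p under 0.05 was 2065, 954 and 129 in the order of the report, with ranges of 770 (without GFP-TC 2; 779 without ThTC 2) to 3079, 332 (without ThTC 2; 394 without sECM only 3, 528 without sECM only 2, 529 without ThTC 3) to 1594 (without ThTC 1) and 80 (without sECM only 1) to 1314 (without GFP-TC 1). Scaling by median of ratios gave 1289 for the first, the neuron covariate 3441, 1615 and 434, leaving out GFP-TC 3 and ThTC 3 together 599 and 210 for the last 2, and the last was 297 with no filter on low values and 78 with the block. The number of the 10 genes with a lower mean with GFP-TC than with sECM only ran from 2 to 8 with a library left out, and was 2 without GFP-TC 3 and ThTC 3 together.

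Signs turned for small differences. After median-of-ratios scaling, ThTC against GFP-TC gave 0.047 for Thbs1 and 0.051 for Fn1, and GFP-TC against sECM only gave -0.0068 for Postn and -0.077 for Thbs1; the neuron covariate gave 0.0068 for Sparc there. Without GFP-TC 3 and ThTC 3 together, ThTC against sECM only gave 0.078 for Thbs1 and 0.15 for Dcn, and GFP-TC against sECM only gave 0.071 for Sparc, 0.12 for Thbs2, 0.14 for Sfrp4 and 0.047 for Fap. With 1 library left out, ThTC against GFP-TC ran from -0.20 to 0.14 for Thbs1, -0.14 to 0.026 for Fn1 and -0.56 to 0.039 for Dcn. ThTC against sECM only ran from -0.093 to 0.29 for Tnc, -0.15 to 0.078 for Thbs1 and -0.45 to 0.15 for Dcn. GFP-TC against sECM only ran from -0.16 to 0.46 for Postn, -0.068 to 0.071 for Sparc, -0.21 to 0.14 for Thbs1, -0.26 to 0.12 for Thbs2, -0.36 to 0.14 for Sfrp4 and -0.17 to 0.047 for Fap. The cause was not tested.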
